A study of Mus musculus with 6 samples.

Results

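The neutrophil-attracting CXC chemokine genes *Cxcl1*, *Cxcl2*, *Cxcl3*, and *Cxcl5* were followed in murine bone marrow–derived macrophages given LPS with or without an inhibitor of the deubiquitinase USP7. These 4 genes are those whose name on the array equals a listed symbol, out of 34787 gene names, and each was read by 1 probe in 1 spot. The macrophages came from wild type female C57BL/6 mice, 6 to 8 weeks old by the labels, and were grown for 7 days in medium conditioned by L929 cells, a mouse fibroblast line. The paper gives an older age of the mice than the labels do. Untreated cells were compared with cells given LPS, the bacterial ligand of TLR4, for 4 h (LPS), and with cells that received 10 μM HBX41108, an inhibitor of USP7, 30 min before the same LPS treatment (LPS+USP7i). The description of the series gives the dose as 100 ng of LPS per ml, while the sample records give 100 ng per μl. Whether cells given LPS alone also received the solvent of the inhibitor is not given in the sources used here. RNA of each group was hybridized to 2 one-color arrays, from independent experiments, so each group mean rests on 2 values.

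CXC chemokines of this class bind the receptor CXCR2 on neutrophils and direct these cells from the blood into tissue. Macrophages that sense LPS through TLR4 are an early source of them, and NF-κB is the transcription factor best known for switching on their genes. Their mRNAs carry AU-rich elements and are short-lived, so proteins that degrade or protect mRNA also set their level. USP7 removes ubiquitin from NF-κB subunits, and the arrays addressed how its inhibition alters the transcriptional response to LPS.

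The 4 genes lie close together on chromosome 5. In the RefSeq annotation (GRCm38.p6) the stretch from *Cxcl5* to *Cxcl2* holds 7 protein-coding genes in the order *Cxcl5*, *Ppbp*, *Pf4*, *Cxcl3*, *Cxcl15*, *Cxcl1*, and *Cxcl2*. The array files place the probes on the older build mm9, that of *Cxcl5* at chr5:91190490-91190549, that of *Cxcl3* at chr5:91216694-91216753, that of *Cxcl1* at chr5:91321845-91321904, and that of *Cxcl2* at chr5:91334534-91334593. Which part of each transcript a probe reads was not analysed here. The probes are 60 bases long and no pair of them shares a run of more than 7 bases.

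The promoters of 3 members, *Cxcl1*, *Cxcl2*, and *Cxcl3*, were in the RefSeq promoter table (GRCm38.p6), and the 150 bases before each start are shown. *Cxcl5* had no entry there, so its promoter could not be compared. Whether these sequences bear on the signals of the genes was not tested. All are on the + strand, at chr5:90891095-90891244 for *Cxcl1*, chr5:90903749-90903898 for *Cxcl2*, and chr5:90785951-90786100 for *Cxcl3*. Capitals mark matches to the κB consensus and to ATAAAAGG, which resembles a TATA box.
Cxcl1: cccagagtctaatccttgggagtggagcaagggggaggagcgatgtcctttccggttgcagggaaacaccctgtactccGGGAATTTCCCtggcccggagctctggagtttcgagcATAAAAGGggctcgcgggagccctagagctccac
Cxcl2: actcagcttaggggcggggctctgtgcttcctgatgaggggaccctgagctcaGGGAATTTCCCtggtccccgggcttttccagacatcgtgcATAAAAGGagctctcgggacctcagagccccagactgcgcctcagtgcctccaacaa
Cxcl3: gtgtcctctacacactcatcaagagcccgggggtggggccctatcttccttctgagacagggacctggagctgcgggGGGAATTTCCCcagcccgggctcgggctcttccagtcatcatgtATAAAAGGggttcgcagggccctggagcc

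The same block of 11 bases, GGGAATTTCCC, stood in all 3 promoters and matched the κB consensus, which is 10 bases long, once on each strand, so that the matches overlapped. It began 71 bases before the start in *Cxcl1*, 97 in *Cxcl2*, and 73 in *Cxcl3*, and it was followed by ATAAAAGG after 26, 29, and 33 bases in the same order. The κB consensus matched in 4.6% of 32843 promoter windows of the same length, searched on both strands, and ATAAAAGG in 1.05%. Both were found in 11 windows (0.0335%), 3 of which belong to these genes. The exact sequence GGGAATTTCC was found in 20 windows (0.0609%), 3 of which belong to these genes. It was taken from these 3 promoters, so its match in them was fixed in advance. ATAAAAGG was searched after the sequences had been seen, and it overlaps the shorter TATAAA, which 1 of the 3 promoters (*Cxcl3*) and 7.58% of all windows held. TGANTCA, a motif of AP-1, and TTGCNNAA, a motif of C/EBP factors, were found in 0 of the 3 windows and in 4.24% and 5.46% of all windows. Of the other genes of the stretch, *Pf4*, *Ppbp*, and *Cxcl15* had no match to the κB consensus in this window, and the promoter of *Ppbp* held ATAAAAGG. Outside the stretch, the promoters of *Cxcl10* and *Il6* also matched the κB consensus, and those of *Tnf*, *Il1b*, and *Il12b* did not. A match is a run of letters and does not show that a factor binds there.

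**Figure D1:**
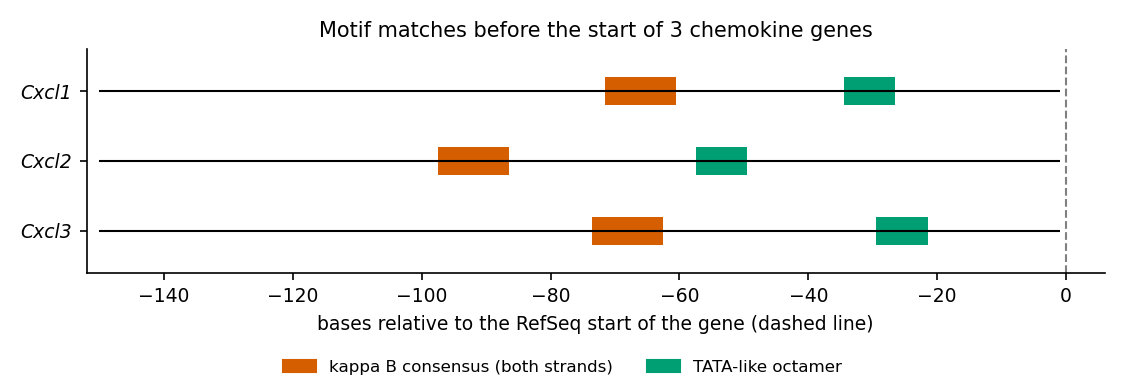
Position of motif matches in the 150 bases before the start of *Cxcl1*, *Cxcl2*, and *Cxcl3*, in bases relative to the start that RefSeq gives (dashed line), where orange blocks are the κB consensus matches of both strands, which cover 11 bases, and green blocks are ATAAAAGG. The orange block precedes the green block by 26 bases in *Cxcl1*, 29 in *Cxcl2*, and 33 in *Cxcl3*.

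*Cxcl1*, also known as KC, encodes the mouse chemokine most often measured as a sign of neutrophil recruitment. Its normalized signal on the log2 scale was 4.57 and 3.59 on the untreated arrays, 13.77 and 14.12 on those of LPS, and 14.64 and 15.08 on those of LPS+USP7i. The 3 groups did not overlap, and the untreated cells were far below the others. *Cxcl2*, which encodes MIP-2, was at 5.27 and 4.09 (untreated), 13.62 and 13.73 (LPS), and 14.79 and 14.60 (LPS+USP7i). Its replicates within each stimulated group were the closest of the 4 genes, 0.12 apart with LPS and 0.19 with LPS+USP7i, and again the groups were fully separate. *Cxcl3*, a close relative of *Cxcl2*, started at 4.76 and 3.79 without LPS and reached 12.53 and 13.44 after LPS, against 13.45 and 14.61 after LPS+USP7i. The lower array of LPS+USP7i lay only just above the higher array of LPS, so that for *Cxcl3* these groups were separated by less than the spread within either.

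*Cxcl5*, which encodes the chemokine called LIX, had the widest spread between replicates of the stimulated cells. The untreated arrays read 3.85 and 2.94, the LPS arrays 6.62 and 8.63, and the LPS+USP7i arrays 8.51 and 10.87. The LPS and LPS+USP7i groups overlapped, since the array of LPS replicate 2 was above that of LPS+USP7i replicate 1. Replicate 2 exceeded replicate 1 by 2.01 with LPS and by 2.36 with LPS+USP7i, whereas in untreated cells replicate 2 was the lower of the pair. By the scanner software's test of each spot, *Cxcl5* was not well above background on either untreated array. *Cxcl1*, *Cxcl2*, and *Cxcl3* were well above background on 1 of the 2 untreated arrays, that of replicate 1. For each of the 4 genes the order of the means was untreated, LPS, and LPS+USP7i.

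**Figure D2:**
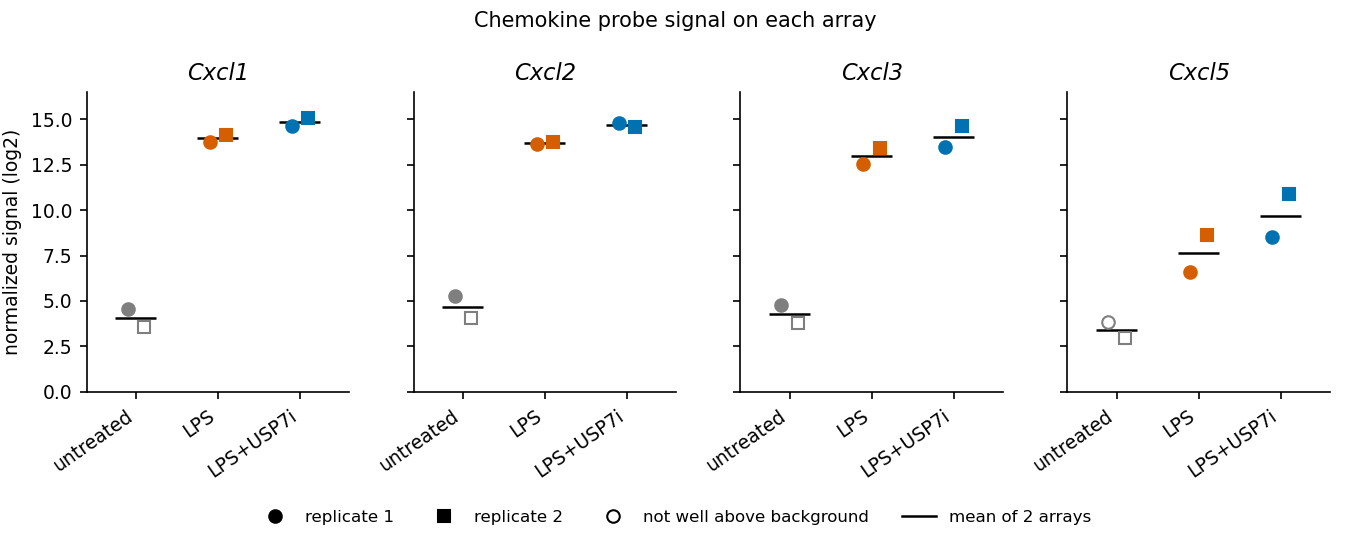
Normalized signal of the 4 chemokine probes on the log2 scale (y axis) on each of the 6 arrays, by group (x axis), with group means as lines, where circles are replicate 1, squares are replicate 2, and open symbols are not well above background. *Cxcl1*, *Cxcl2*, and *Cxcl3* rise from means of 4.08, 4.68, and 4.28 in untreated cells to means of 13.95, 13.67, and 12.99 with LPS, and levels of different probes are not comparable with each other.

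LPS raised 3 of the 4 chemokines. Here called means an adjusted p value under 0.05. The log2 difference was 9.86 for *Cxcl1* (standard error 0.40, adjusted p = 0.00289), or 932-fold. It was 8.99 for *Cxcl2* (standard error 0.43, adjusted p = 0.00323) and 8.71 for *Cxcl3* (standard error 0.62, adjusted p = 0.00507). These sizes rest on untreated signals near background. *Cxcl5* was higher by 4.23 (standard error 1.14), by 2.77 in replicate 1 and 5.69 in replicate 2, and did not pass the threshold (adjusted p = 0.0890). Because *Cxcl5* was not well above background in untreated cells, its difference is a bound of at least 13.1-fold, computed against the faintest signal well above background on each untreated array or, where higher, the signal of the probe itself. This bound and those below hold for the reported processing only.

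Thus 3 of 4 members were called higher with LPS, while 7.09% of all probes were. That share depends on the scaling, since 75th percentile scaling called 21768 of 55680 probes higher and 5669 lower, against 3948 and 5947 as reported, and 4 of 4 members. The size of the difference depended on how faint signals were treated, and with normexp background correction it was 7.55 for *Cxcl1*, 6.94 for *Cxcl2*, 6.45 for *Cxcl3*, and 1.77 for *Cxcl5*. With the deposited table of log2 values it was 8.73, 8.12, 7.77, and 2.93 in the same order. *Cxcl5* was called with 75th percentile scaling (4.4, adjusted p = 0.0351) and when dim probes were left out (adjusted p = 0.0204). It stayed in the latter setting only through the stimulated arrays, so that call adds no support for a rise over untreated cells. In every other setting it was not called, with an adjusted p of 0.174 under normexp background correction.

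Between LPS+USP7i and LPS no member passed the threshold in either direction. The value of each was higher in LPS+USP7i than in LPS in both replicates. The share of all probes that did so is not given here, so this count does not set the members apart. The difference was 0.91 for *Cxcl1* (standard error 0.40, adjusted p = 0.307), with a 95% interval from −0.19 to 2.01 that is not adjusted for the number of probes. For *Cxcl2* it was 1.02 (standard error 0.43, adjusted p = 0.286), with an interval from −0.16 to 2.20. *Cxcl3* had a difference of 1.04 (standard error 0.62, adjusted p = 0.483) and an interval from −0.67 to 2.75. These values correspond to 1.88-fold, 2.03-fold, and 2.06-fold. *Cxcl5* had the largest difference, 2.07 (standard error 1.14, adjusted p = 0.437), and the widest interval, from −1.07 to 5.21. Its difference was 3.25 without LPS+USP7i replicate 1 and 0.89 without LPS+USP7i replicate 2, where that of *Cxcl2* was larger (1.11).

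The arrays of the same replicate number gave similar values, 0.87 and 0.96 for *Cxcl1*, 1.17 and 0.87 for *Cxcl2*, 0.92 and 1.17 for *Cxcl3*, and 1.89 and 2.24 for *Cxcl5*. With limma, 0 of the 4 members were called higher and 0 lower, and 0 had an unadjusted p under 0.05, against 4.66% of all probes called higher and 3.79% called lower. At an unadjusted p under 0.05, 6955 probes were higher and 5731 lower. Both arrays of LPS+USP7i were above both arrays of LPS for 3 of the 4 members and for 25.2% of all probes. The median difference of the members was 1.03, and that of all probes was −0.001. Quantile normalization keeps the median of all probes near 0 in every comparison. That median therefore does not measure how unusual the members are. With 2 arrays against 2, an exact permutation test cannot give a two-sided p below 0.333. *Cxcl1* and *Cxcl2* were called higher with normexp background correction (0.97, adjusted p = 0.0145, and 1.02, adjusted p = 0.00407). They were called in no other setting. Among the others that left 2 arrays in each group, the adjusted p was lowest with the deposited table, 0.0708 for *Cxcl1* and 0.0653 for *Cxcl2*. It was highest with 75th percentile scaling, 0.574 and 0.496 in the same order.

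**Figure D3:**
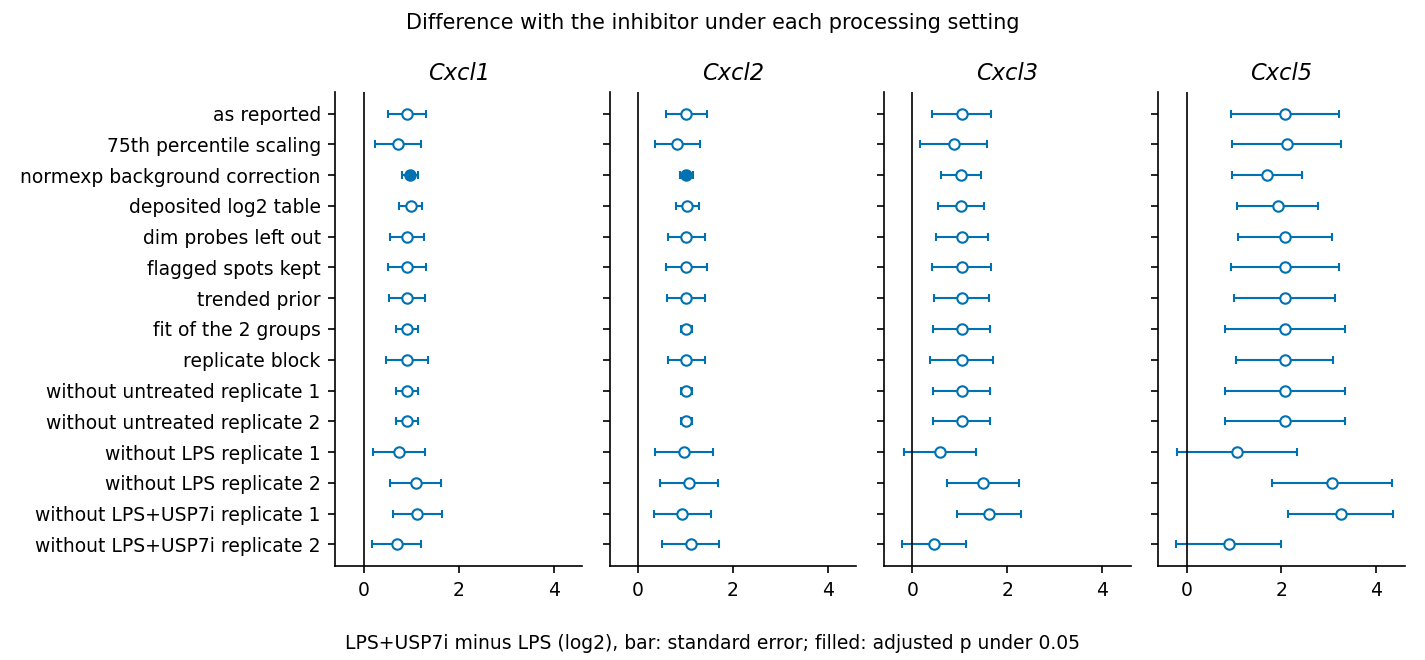
Difference between LPS+USP7i and LPS on the log2 scale (x axis) for each chemokine under the reported processing and each other setting (y axis), with the standard error as a bar and filled symbols where the adjusted p was under 0.05. Every point lies above 0, between 0.46 (*Cxcl3* without LPS+USP7i replicate 2) and 3.25 (*Cxcl5* without LPS+USP7i replicate 1), and the filled points are *Cxcl1* and *Cxcl2* with normexp background correction.

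Compared with untreated cells, all 4 chemokines were called higher in LPS+USP7i, against 5.65% of all probes. With 75th percentile scaling 21937 of 55680 probes were called higher and 4605 lower, against 3147 and 4086 as reported. This comparison shares the LPS+USP7i arrays with the comparison to LPS and the untreated arrays with that of LPS. *Cxcl1* was higher by 10.78 (standard error 0.40, adjusted p = 0.00443), *Cxcl2* by 10.01 (standard error 0.43, adjusted p = 0.00496), and *Cxcl3* by 9.75 (standard error 0.62, adjusted p = 0.00683). *Cxcl5* was higher by 6.30 (standard error 1.14, adjusted p = 0.0422), at least 55-fold under the reported processing. The difference of *Cxcl5* was smaller with the deposited table (4.85) and with normexp background correction (3.46), which lie below that bound. Its call was lost in 8 of 14 other settings, among them each of the 6 that left out 1 array (differences from 5.12 to 7.48). In the fit of the 2 groups the adjusted p was 0.0731. The lowest adjusted p, 0.00750, came with dim probes left out. *Cxcl5* stayed in that setting only through the stimulated arrays, so this value adds no support.

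Of 4 inflammatory cytokine genes set beside the chemokines, 2 were called lower with the inhibitor, beside 3.79% of all probes. On the log2 scale *Tnf* fell by 0.78 in LPS+USP7i compared with LPS (standard error 0.12, adjusted p = 0.0382) and *Il12b*, which encodes a subunit of interleukin-12, fell by 5.73 (standard error 0.96, adjusted p = 0.0477). *Il6* and *Il1b* had differences of −2.55 (adjusted p = 0.0831) and −3.82 (adjusted p = 0.0607), lower between the arrays of both replicates, and were not called. The call of *Tnf* was lost in 9 of 14 alternatives (adjusted p from 0.00508 to 0.138), among them the deposited table, the fit of the 2 groups, and each fit without 1 array. That of *Il12b* was lost in 7 (adjusted p from 0.00315 to 0.165), among them each fit without 1 array except LPS+USP7i replicate 2. The distance between a chemokine and a cytokine within the same array was also compared between groups. *Cxcl1* gained 1.69 on *Tnf*, 3.47 on *Il6*, 4.73 on *Il1b*, and 6.64 on *Il12b* from LPS to LPS+USP7i. The gain of *Cxcl2* on *Tnf* was 1.80, that of *Cxcl3* 1.82, and that of *Cxcl5* 2.84.

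The cytokines were set beside the chemokines after their values were seen, all 4 being lower with the inhibitor, so these gains follow from that choice and are given as values only. A change in such a distance shows unequal change of a pair of genes and does not show which of them changed. Among *Cxcl1*, *Cxcl2*, and *Cxcl3* the distances shifted little, by −0.11 between *Cxcl1* and *Cxcl2*, by −0.13 between *Cxcl1* and *Cxcl3*, and by −0.02 between *Cxcl2* and *Cxcl3*, and relative to *Cxcl5* they shifted by −1.16, −1.05, and −1.03. The groups overlapped for all 6 pairs of members.

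**Figure D4:**
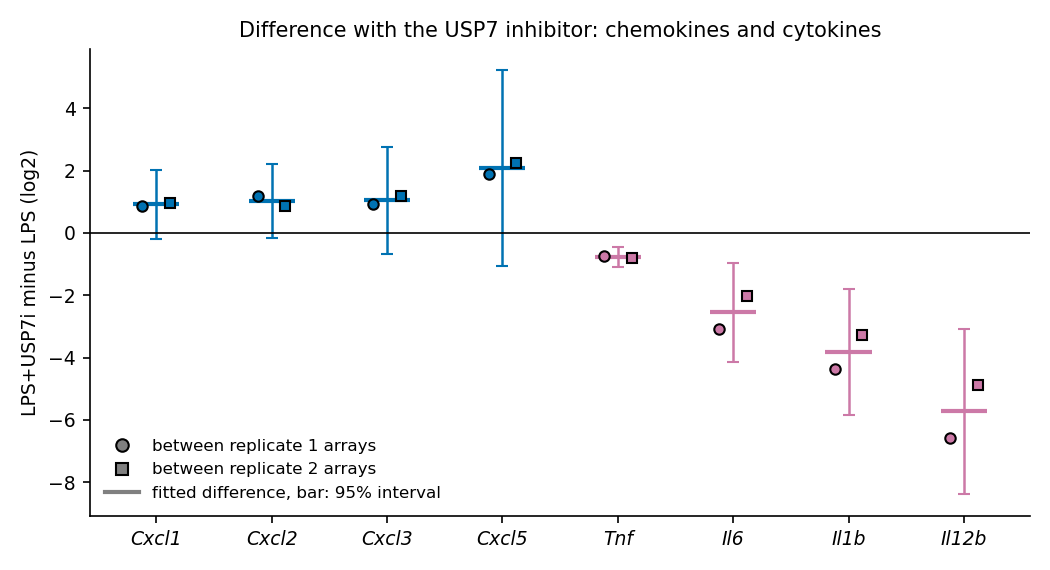
Difference between LPS+USP7i and LPS on the log2 scale (y axis) for the 4 chemokines (blue) and 4 cytokine genes (pink), where circles and squares are the differences within replicate 1 and within replicate 2, horizontal lines are the fitted differences, and bars are their 95% intervals, not adjusted for the number of probes. The chemokines lie between 0.91 and 2.07 and the cytokines between −5.73 and −0.78, of which *Tnf* and *Il12b* passed the threshold after adjustment under the reported processing.

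*Cxcl1*, *Cxcl2*, and *Cxcl3* had nearly the same profile over the 6 arrays. Likeness was measured as the root mean square distance between log2 profiles, each centered on its own mean, and this distance was 0.44 between *Cxcl1* and *Cxcl2*, 0.47 between *Cxcl2* and *Cxcl3*, and 0.58 between *Cxcl1* and *Cxcl3*. *Cxcl5* was 1.98 to 2.54 away from the other members. Among 13257 other genes, *Cxcl10*, which encodes a chemokine that draws T cells, was the most like each of the 3, at 0.88 from *Cxcl1*, 0.66 from *Cxcl2*, and 0.69 from *Cxcl3*. *Cxcl10* was higher by 8.91 with LPS and differed by −0.26 between LPS+USP7i and LPS (adjusted p = 0.746). The next genes were *Ptgs2* (1.02), the inducible cyclooxygenase, and *Acod1* (1.07), which makes itaconate, for *Cxcl1*. They were *Acod1* (0.83) and the interferon gene *Ifnb1* (0.83) for *Cxcl2*, and *Ifnb1* (0.81) and *Acod1* (0.83) for *Cxcl3*. The gene most like *Cxcl5* was *Slc7a11* (0.78), a cystine transporter, which was higher by 3.68 with LPS and was called higher in LPS+USP7i against LPS (2.20, adjusted p = 0.0407), a call lost in the fit of the 2 groups and in each fit without 1 array. Whether it differed from *Cxcl5* was not tested. It was followed by *1700012B09Rik* (0.89) and *D16Ertd472e* (0.92). *Cxcl5* was not well above background on either untreated array, so its distances and this order rest in part on background signal. The same holds for the other members on untreated replicate 2.

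The other chemokine genes of the same stretch of chromosome 5 were not called in any comparison as reported. With 75th percentile scaling 1 of the 3 was called higher with LPS and 1 in LPS+USP7i against untreated cells, beside 21768 and 21937 of all 55680 probes. *Pf4*, the platelet factor 4 gene, was bright in every group, with means of 16.59 (untreated), 16.29 (LPS), and 16.74 (LPS+USP7i), and its LPS difference was −0.30 (adjusted p = 0.898). *Ppbp*, the precursor of another platelet chemokine that binds CXCR2, had means of 6.52, 6.68, and 7.46 in the same order. Its difference between LPS+USP7i and LPS was 0.79 (adjusted p = 0.326), with both LPS+USP7i arrays above both LPS arrays. *Cxcl15*, a chemokine gene of lung epithelium, stayed near background on all 6 arrays. With limma, 0 of these 3 genes were called for LPS+USP7i against LPS, beside 4.66% of all probes called higher and 3.79% lower. None of them had an unadjusted p under 0.05 in any comparison.

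The receptors for these ligands were not detected. *Cxcr1*, *Cxcr2*, and *Ackr1*, an atypical receptor that binds chemokines without signaling, were not well above background on any of the 6 arrays. The probe of *Cxcr1* was called lower with LPS (adjusted p = 0.0348), but no fold is given for a signal below background in both groups, and the call was lost in 7 of 14 alternatives, among them each fit without 1 untreated or LPS array. For LPS+USP7i against LPS, 0 of the 3 receptors were called with limma and 1 had an unadjusted p under 0.05. Of all probes 4.66% were called higher and 3.79% lower there.

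Genes of the TLR4 pathway to NF-κB were mostly induced by LPS. With LPS, 18 of 29 were called higher and 3 lower, with a median difference of 1.43 against 0.0045 for all probes, of which 3948 were called higher and 5947 lower among 55680. The largest rises were those of *Nfkbiz* (5.53, adjusted p = 0.00324), a nuclear cofactor of NF-κB, and *Tnfaip3* (4.89, adjusted p = 0.00155), the feedback inhibitor A20. *Tab1*, an adaptor of the kinase TAK1, fell by 2.11 (adjusted p = 0.00280), and *Tlr4* itself fell by 0.80 (adjusted p = 0.0305). The calls of *Nfkbiz*, *Tnfaip3*, and *Tab1* held in all 14 alternatives, while that of *Tlr4* was lost with 75th percentile scaling and without any 1 untreated or LPS array. In those fits without 1 array, 16 genes were called higher and 1 lower. In LPS+USP7i compared with LPS, 11 of 29 were called lower and 0 higher, with a median of −0.48, against 3.79% and 4.66% of all probes. Shares of all probes, here and for the other lists, include dim probes. With dim probes left out, 14 of 29 were called lower and 2 higher, beside 3287 and 3772 of 25084 probes. With a replicate block 5 were called lower and 0 higher. The number with an unadjusted p under 0.05 in this comparison was 16 lower and 6 higher. *Ticam2*, the TLR4 adaptor TRAM, was not well above background in LPS+USP7i and was at least 7.87-fold lower (adjusted p = 0.0183), and *Nfkb1*, the NF-κB subunit p50, fell by 1.45 (adjusted p = 0.0134).

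Compared with untreated cells, 16 of the 29 pathway genes were called higher and 3 lower in LPS+USP7i, against 5.65% and 7.34% of all probes. With a replicate block these counts were 13 and 2. Without either untreated array the counts were 9 and 1, without either LPS array and in the fit of the 2 groups 11 and 1. They were 10 and 2 without LPS+USP7i replicate 2. *Tnfaip3* was higher by 4.50 (adjusted p = 0.00384) and *Nfkbiz* by 4.07 (adjusted p = 0.00695), while *Tab1* fell by 1.77 (adjusted p = 0.00509) and *Ticam2* was at least 2.51-fold lower (adjusted p = 0.0396), a call lost in the fit of the 2 groups and without any 1 untreated or LPS array. *Usp7*, the target of the inhibitor, was not called in any comparison and differed by −0.14 between LPS+USP7i and LPS (adjusted p = 0.627). All calls for LPS+USP7i against LPS in this and the following lists were lost in the fit of these 2 groups alone and without either untreated array, where 0 of all probes passed although 11257 had an unadjusted p under 0.05 in the fit of the 2 groups. Over all settings 0 to 15 pathway genes were called lower and 0 to 4 higher in this comparison. The genes called higher numbered 4 with normexp background correction, 2 with a trended prior, 2 with dim probes left out, 1 with 75th percentile scaling, and 1 with the deposited table. Without LPS replicate 1 or 2, 1 gene was called lower, which was neither *Ticam2* nor *Nfkb1*, and without LPS+USP7i replicate 1 or 2, 5 and 6 were. No listed gene called as reported changed its direction.

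Regulators of chemokine mRNA moved in both directions. With LPS, 6 of 11 were called higher and 2 lower, against 3948 and 5947 of all 55680 probes. *Zc3h12a*, which encodes the ribonuclease Regnase-1, was higher by 3.25 (adjusted p = 0.00304) and *Mapkapk2*, a kinase that holds mRNA-degrading proteins inactive, by 2.68 (adjusted p = 0.00281). *Zfp36l2* and *Zfp36l1*, which encode proteins that bind AU-rich elements and promote decay, fell by 4.48 (adjusted p = 0.00391) and 3.75 (adjusted p = 0.0123). Without either LPS array 3 were called higher and 1 lower, and without either untreated array 4 and 1. The call of *Zfp36l1* was lost in these 4 fits, and those of *Zc3h12a*, *Mapkapk2*, and *Zfp36l2* held in all 14 alternatives. In LPS+USP7i compared with LPS, 2 of 11 were called higher, *Zfp36l2* by 2.49 (adjusted p = 0.0209) and *Dusp1*, a phosphatase that limits p38 signaling, by 2.36 (adjusted p = 0.0212). Of all probes 4.66% were called higher and 3.79% lower. *Mapkapk2* was the 1 gene called lower and fell by 1.30 (adjusted p = 0.0151). Without either LPS array 0 were called in this comparison, and without LPS+USP7i replicate 1 the call of *Mapkapk2* was lost. Compared with untreated cells, 5 were called higher and 2 lower in LPS+USP7i, beside 5.65% and 7.34% of all probes, with *Zc3h12a* higher by 2.82 (adjusted p = 0.00543) and *Dusp1* by 2.52 (adjusted p = 0.0119), and with *Zfp36l1* and *Zfp36l2* having fallen by 2.85 (adjusted p = 0.0290) and 1.99 (adjusted p = 0.0201). The calls of *Zfp36l1* and *Zfp36l2* were lost in the fit of the 2 groups and without any 1 untreated or LPS array, and that of *Dusp1* without either untreated array, where 3 genes were called higher and 0 lower.

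Other factors that draw or expand neutrophils were followed as well. Of 12 listed genes 11 were found, and *C5* was not found under that symbol. With LPS, 4 were called higher and 2 lower, beside 7.09% of all probes higher and 5947 of 55680 lower. *Il1a* rose at least 139-fold (adjusted p = 0.00317) and *Csf2*, which encodes GM-CSF, at least 12.0-fold (adjusted p = 0.00445). *Hebp1* and *Alox5ap*, which helps make leukotrienes, fell by 0.72 (adjusted p = 0.0217) and 0.63 (adjusted p = 0.0179). Neither fall was called with the deposited table or without untreated replicate 1, untreated replicate 2, or LPS replicate 1, and the calls of *Il1a* and *Csf2* held in all 14 alternatives. The call of *Alox5ap* was also lost with 75th percentile scaling. That of *Hebp1* was also lost in the fit of the 2 groups and without either LPS+USP7i array. In LPS+USP7i compared with LPS, 4 were called lower and 0 higher (limma; 2 higher at an unadjusted p under 0.05), beside 3.79% and 4.66% of all probes. Without LPS replicate 1, LPS replicate 2, or LPS+USP7i replicate 1, 0 were called lower, and without LPS+USP7i replicate 2 there was 1, which was neither *Saa3* nor *Csf2*. *Saa3*, an acute phase protein gene, fell by 2.97 (adjusted p = 0.0399) and *Csf2* by 2.95 (adjusted p = 0.0215). The signal of *Csf2* was well above background on 1 of 2 LPS+USP7i arrays, so the size of its fall is uncertain. Compared with untreated cells, *Il1a* (at least 22.2-fold, adjusted p = 0.00760) and *Csf2* (at least 1.56-fold, adjusted p = 0.0376) were the 2 genes called higher in LPS+USP7i, beside 5.65% of all probes. The call of *Csf2* was lost in 10 of 14 alternatives, among them every fit without 1 array, and that of *Il1a* without untreated replicate 2.

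Proteases that trim chemokines and molecules that bind them on the cell surface were mostly not called. With LPS, 3 of 10 were called higher and 0 lower, beside 7.09% of all probes higher and 5947 of 55680 lower (1 lower at an unadjusted p under 0.05, limma), led by the heparan sulfate proteoglycan gene *Sdc4* (4.53, adjusted p = 0.00541) and by *Tnfaip6* (at least 5.20-fold, adjusted p = 0.00310), which encodes TSG-6, a hyaluronan-binding protein. In LPS+USP7i compared with LPS, 1 of 10 was called lower, beside 3.79% of all probes, the matrix proteoglycan gene *Vcan*, which fell by 2.12 (adjusted p = 0.0167), a call lost in the fit of the 2 groups and in each fit without 1 array except LPS+USP7i replicate 2. Over all settings 0 to 3 were called lower and 0 to 1 higher. Compared with untreated cells, *Tnfaip6* (at least 5.64-fold, adjusted p = 0.00502) and *Sdc4* (2.73, adjusted p = 0.0187) were called higher in LPS+USP7i, beside 5.65% of all probes. The call of *Sdc4* was lost in the fit of the 2 groups and without any 1 untreated or LPS array.

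**Figure D5:**
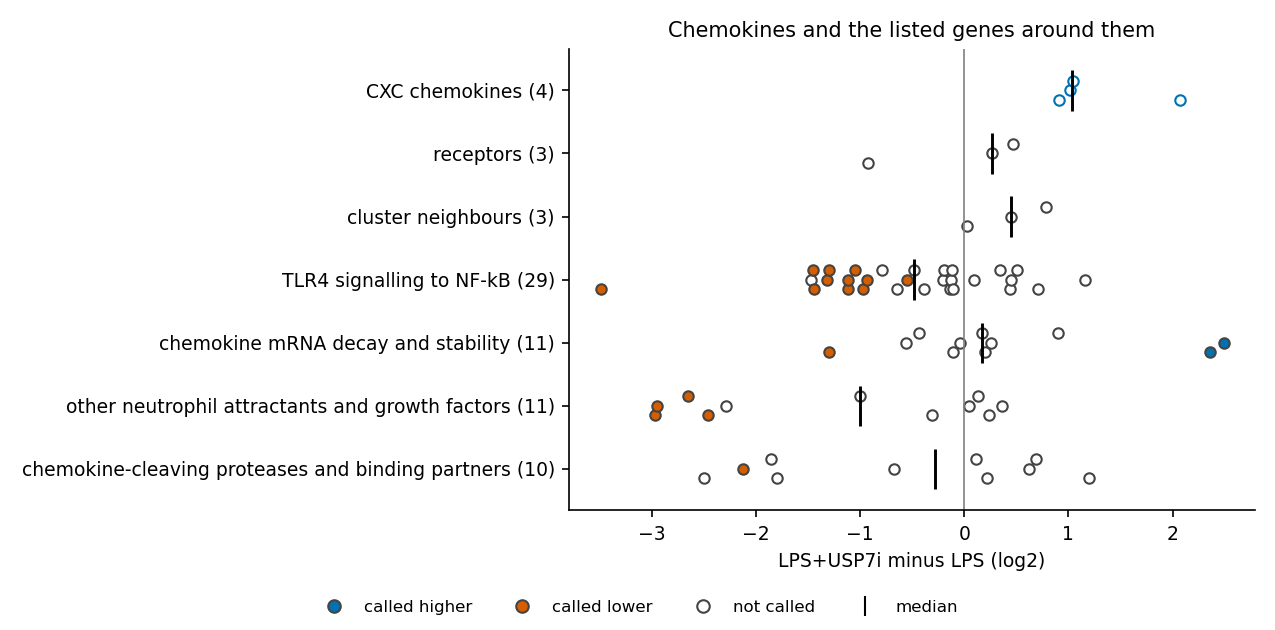
Difference between LPS+USP7i and LPS on the log2 scale (x axis) for the 4 chemokines and each gene of 6 lists (y axis, number of genes in parentheses), where blue circles were called higher, orange circles called lower, and open circles not called, and black lines are medians. The 4 chemokines lie from 0.91 to 2.07 with a median of 1.03, while the TLR4 pathway list has a median of −0.48.

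The arrays carried the RNA of macrophages. All 8 macrophage markers, which include the receptor of the growth factor CSF1 (*Csf1r*), were well above background on all 6 arrays, and *Csf1r* was the brightest of them with a normalized log2 signal from 17.31 to 18.05. In each comparison 1 of the 8 was called lower, beside 5947 of all 55680 probes with LPS, 3.79% for LPS+USP7i against LPS, and 7.34% for LPS+USP7i against untreated cells. With LPS *Itgam* fell by 0.66 (adjusted p = 0.0233), a call lost without any 1 untreated or LPS array and with 75th percentile scaling. That scaling called 2 of the 8 higher and 0 lower, beside 21768 and 5669 of all 55680 probes. In LPS+USP7i against untreated cells the values of all 8 were lower as reported, 4 of them at an unadjusted p under 0.05 (limma), with a median of −0.47. Of all 55680 probes 8047 were lower at that threshold. There 75th percentile scaling called 1 marker higher and 2 lower, beside 21937 and 4605 of all probes. In LPS+USP7i *Fcgr1*, a receptor for antibodies, fell by 1.60 compared with LPS (adjusted p = 0.0317) and by 1.26 compared with untreated cells (adjusted p = 0.0374). Both calls of *Fcgr1* were lost whenever 1 array was left out. *Mertk* had a difference of −1.20 between LPS+USP7i and LPS (adjusted p = 0.136). Of the neutrophil markers, 5 of 10 were well above background on all arrays, while *Retnlg* and *Cxcr2* were well above background on none. The neutrophil marker with the brightest probe was the collagenase gene *Mmp8*, which differed by 0.69 between LPS+USP7i and LPS (adjusted p = 0.356). In that comparison the values of the 10 went in both directions, and their median turned sign with the arrays used, from −0.72 without LPS+USP7i replicate 2 to 0.39 without LPS replicate 2. *Mmp8*, *Elane*, and *Cxcr2* of this list also belong to other lists described here. As reported, none of the 10 neutrophil markers was called in any comparison (limma), 1 was called higher for LPS+USP7i against LPS with normexp background correction and with dim probes left out, and 1 had an unadjusted p under 0.05 for LPS+USP7i against LPS. The part of other cells in the chemokine signal was not tested.

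Of 7 fibroblast markers, 0 were well above background on all arrays, and *Col1a1*, *Col3a1*, *Pdgfra*, and *Lum* were well above background on none. The brightest probe was that of the growth factor receptor gene *Pdgfrb*. *Pdgfrb* was the 1 fibroblast marker called higher with LPS (5.29, adjusted p = 0.0321), beside 7.09% of all probes. Its call was lost without any 1 untreated or LPS array, and 3 fibroblast markers were called higher with 75th percentile scaling, beside 21768 of all 55680 probes. Its difference between LPS+USP7i and LPS was −4.77 (adjusted p = 0.0640), with a signal well above background on 1 of 2 LPS+USP7i arrays. As reported 0 fibroblast markers were called for LPS+USP7i against LPS, where 2 were lower at an unadjusted p under 0.05 (limma), and 1 was called lower with 75th percentile scaling, normexp background correction, the deposited table, dim probes left out, and a trended prior. Of 5 dendritic cell markers only *Siglech* was well above background on all arrays, and *Flt3*, *Xcr1*, and *Cd209a* were on none. The value of *Siglech* differed by 0.75 between LPS+USP7i and LPS (adjusted p = 0.149). It was the 1 marker with a higher value there, while 4 had a lower value, and the median of the 5 was −0.36. As reported 0 dendritic cell markers were called in that comparison (limma), 1 was higher at an unadjusted p under 0.05, 1 was called higher with normexp background correction, and 1 was called lower without LPS replicate 2. *Zbtb46*, not well above background in untreated cells, was called higher with LPS (at least 5.65-fold, adjusted p = 0.00435) and in LPS+USP7i against untreated cells (adjusted p = 0.00806), the latter call being lost without either untreated array. With LPS 1 dendritic cell marker was called lower under normexp background correction, with dim probes left out, and in the fit of the 2 groups, and 0 as reported. Of 6 lymphocyte markers, 2 were well above background on all arrays, with *Cd3e* as the brightest. In any comparison 0 of the 6 were called and 0 had an unadjusted p under 0.05 (limma). With LPS, 7.09% of all probes were called higher and 5947 of 55680 lower. The shares called higher and lower were 4.66% and 3.79% for LPS+USP7i against LPS, and 5.65% and 7.34% against untreated cells. Beside such shares, 0 of 6 called says little about the lymphocyte markers. With 75th percentile scaling, which shifts the median of all probes upward in both comparisons with untreated cells, 1 neutrophil, 3 fibroblast, and 2 dendritic cell markers were called higher in each of them. That scaling called 21768 of all 55680 probes higher with LPS and 21937 in LPS+USP7i, so these counts say little about the markers. In RNA of a whole culture, a change in the number of cells of a type and a change in the RNA of each cell cannot be told apart.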

How the data were processed

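For each one-color array the authors deposited a scanner file, which holds Cy3 intensity per spot after background subtraction by the scanner software and with no normalization between arrays, and a table of log2 values that they quantile-normalized with limma. Each array held 59305 spots for 55681 probes after control spots were left out. Spots well above background numbered 27467 and 27126 (untreated), 25223 and 25002 (LPS), and 26415 and 25290 (LPS+USP7i). The processed intensity was put on the log2 scale and quantile-normalized, spots marked as outliers by the scanner software were left out, and spots of a probe were averaged. The 3 groups entered 1 linear model (R 4.3.3, limma 3.58.1), tested on simulated data, with p values two-sided and adjusted over 55680 probes (Benjamini-Hochberg) at a threshold of 0.05. Where several probes read a gene, the one brightest on average stood for it.

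The members and lists were chosen with earlier results of these data known. The members, the receptors, and the neighbors in the gene cluster were always named. From each other list that holds no cell markers, up to 2 genes called higher and up to 2 called lower with the largest absolute difference were named in each comparison, from each marker list the brightest gene, and for each member the 3 genes most alike. *Usp7*, *Tnf*, *Il6*, *Il1b*, *Il12b*, and markers other than the brightest were named outside this rule, after their values were seen. The alternatives were 75th percentile scaling, normexp background correction (offset 50), the deposited log2 table, dim probes left out, outlier spots kept, a trended prior, a fit of only the 2 groups compared, a replicate block, and each array left out in turn.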

Additional observations from a re-analysis of the deposited data

How the results depend on the processing

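No member changed the direction of its difference in any comparison under any alternative. For LPS against untreated cells, 3 to 4 members were called over all settings, and for LPS+USP7i against untreated cells 3 to 4. For LPS+USP7i against LPS, normexp background correction called 2 members and every other setting 0.

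Counts of called probes moved more. For LPS against untreated cells 9895 (3948 higher, 5947 lower) became 27437 (21768 higher, 5669 lower) with 75th percentile scaling and 4017 to 9177 with 1 array left out. For LPS+USP7i against untreated cells 7233 (3147 higher, 4086 lower) became 26542 (21937 higher, 4605 lower) with 75th percentile scaling, 4684 in the fit of the 2 groups, and 1557 to 5549 with 1 array left out. That scaling shifted the median of all probes by 0.507 and 0.546 in these comparisons. For LPS+USP7i against LPS 4704 became 7059 with dim probes left out, 0 in the fit of the 2 groups, and 0 to 4558 with 1 array left out (0 without either untreated array). The cause was not tested. A group left with 1 array is assumed to vary like the others.

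With a replicate block, 10412 probes were called for LPS and 3543 and 7572 for LPS+USP7i against LPS and untreated cells. It ended the call of *Cxcl5* in the last comparison (6.30, adjusted p = 0.0550, range over the alternatives 0.00750 to 0.178) and changed no other call of a member. It also ended the calls of *Tnf* and *Il12b* for LPS+USP7i against LPS, of *Tlr4* for LPS, and of *Ticam2* for LPS+USP7i against untreated cells. For LPS+USP7i against LPS it called 5 TLR4 pathway genes lower in place of 11, and 1 neutrophil marker higher and 2 lower in place of 0. Differences between replicates correlated by 0.47, 0.40, and 0.42 between pairs of groups, and the labels do not say that the number marks a batch. The number coincides with slide position, since replicate 1 of every group lay at first position 1 and replicate 2 at 2, so an effect of that position cannot be told apart from replicate.

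All arrays lay on 1 slide with each group at its own second position, so an effect of it cannot be told apart from treatment. An effect of the solvent cannot be told apart from that of the inhibitor. Untreated signals of the members lie near background, so the size of their rise is uncertain. With 2 arrays per group and a spread pooled over all 3 groups, differences of the size seen with the inhibitor were measured with wide intervals.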
